A study of Arabidopsis thaliana with 18 samples.

Results

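The Calvin cycle and photorespiration were followed through 37 nuclear genes of Arabidopsis thaliana leaves, 24 of the Calvin cycle and 13 of photorespiration, chosen by locus identifier among the 27628 genes of the deposited count table. All 37 were in the table, and all 37 were among the 19493 genes with enough counts to be tested. Their lowest count in any library was 12, for PLGG1. RNA had been sequenced from leaves of the wild type (WT) and of the lines ml2 and ml5, which the labels call knockdowns, before (day 0) and after 7 days (day 7) of darkness. The 6 groups were WT day 0, WT day 7, ml2 day 0, ml2 day 7, ml5 day 0 and ml5 day 7, each with 3 libraries. The sources used here do not give the age of the plants, the way the knockdowns were made or whether replicates were separate plants. The p-values therefore cover the spread among the libraries, which may be technical. The extraction protocol mentions doxycycline, which no sample label assigns to a group.

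The Calvin cycle fixes carbon dioxide in the chloroplast: Rubisco joins it to ribulose bisphosphate, phosphoglycerate is reduced to triose phosphate, and a chain of sugar phosphate reactions remakes the acceptor. Rubisco also takes oxygen, and the phosphoglycolate that results is salvaged by photorespiration, a path through chloroplast, peroxisome and mitochondrion that returns phosphoglycerate to the cycle and releases carbon dioxide and ammonia. In leaves, many genes of both pathways are known to depend on light, and several Calvin cycle enzymes are switched on by thioredoxin in the light.

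Promoter sequences are shown for 4 members on which later results turn: PRK and RBCS2B, whose dark responses differed between genotypes, and GLDP1 and GLDP2, which encode the same protein of glycine decarboxylase and kept very unequal parts of their level in darkness. Each is the 250 bases before the annotated gene start, on the gene's strand, read 5′ to 3′ from RefSeq TAIR10.1. They lie at chr1:11531949-11532198 on the plus strand for PRK (AT1G32060), chr5:15382072-15382321 on the minus strand for RBCS2B (AT5G38420), chr4:15931423-15931672 on the minus strand for GLDP1 (AT4G33010) and chr2:11114292-11114541 on the minus strand for GLDP2 (AT2G26080). Capitals mark the G-box CACGTG and the I-box GATAAG, motifs known from light-regulated plant promoters and searched on both strands (an I-box on the other strand reads CTTATC).
PRK: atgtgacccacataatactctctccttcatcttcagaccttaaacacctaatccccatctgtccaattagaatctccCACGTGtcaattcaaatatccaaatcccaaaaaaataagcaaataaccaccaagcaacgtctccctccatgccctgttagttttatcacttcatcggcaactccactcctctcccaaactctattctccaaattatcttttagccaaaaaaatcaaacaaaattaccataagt
RBCS2B: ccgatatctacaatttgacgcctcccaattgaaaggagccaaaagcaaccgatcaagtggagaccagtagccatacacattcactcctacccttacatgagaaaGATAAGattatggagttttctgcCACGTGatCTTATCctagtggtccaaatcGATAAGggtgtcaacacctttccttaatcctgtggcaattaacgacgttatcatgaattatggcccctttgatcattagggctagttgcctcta
GLDP1: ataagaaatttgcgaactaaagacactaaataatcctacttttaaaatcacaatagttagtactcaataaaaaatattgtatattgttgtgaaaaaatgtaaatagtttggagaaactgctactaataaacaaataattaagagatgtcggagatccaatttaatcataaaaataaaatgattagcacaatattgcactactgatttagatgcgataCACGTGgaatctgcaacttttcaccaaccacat
GLDP2: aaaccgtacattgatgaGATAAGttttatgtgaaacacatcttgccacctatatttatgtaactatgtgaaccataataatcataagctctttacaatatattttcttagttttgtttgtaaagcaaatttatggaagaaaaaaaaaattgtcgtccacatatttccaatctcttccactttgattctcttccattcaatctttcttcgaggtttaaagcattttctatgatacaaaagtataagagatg
A G-box began at position -173 in PRK, -123 in RBCS2B and -33 in GLDP1, where -1 is the base before the gene start. GLDP2 held no G-box in this window and 1 I-box, and RBCS2B held 3 I-boxes. Over all 27418 promoters of this length, 1777 (6.48%) held a G-box and 3366 (12.3%) an I-box. Among the Calvin cycle members 4 of 24 (16.7%) held a G-box and 5 of 24 (20.8%) an I-box, and among the photorespiration members 2 of 13 (15.4%) and 1 of 13 (7.69%). The members with a G-box were RBCS2B, FBP, TKL2, PRK, GGT1 and GLDP1. The 4 promoters printed were picked after the values of their genes were seen. A match describes the letters and is not a shown binding site.

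Library totals ran from 14914598 to 20417396 counts. Below, levels are TMM-normalised CPM, means carry the SD over 3 libraries, and log2 fold changes carry the SE of the edgeR fit over all 18 libraries. A gene was called where the two-sided adjusted p of edgeR's quasi-likelihood test (Benjamini-Hochberg over all 19493 tested genes) was under 0.05. ML2 was at 58.7 to 63.0 CPM in WT and 5.54 to 7.49 in ml2 at day 0, and at 247 to 257 and 26.4 to 29.7 at day 7. ML5 was at 202 to 212 CPM in WT and 0.924 to 1.56 in ml5 at day 0, and at 313 to 342 and 0.584 to 0.886 at day 7, so the targeted genes went with their labels. The library ml2 day 0 replicate 1 stood apart from replicates 2 and 3 of its group, with a chi-square per degree of freedom of 13.3 and 8.96 against 1.77 to 5.91 in all other pairs of replicates. Marker genes of other tissues moved with day: 5 epidermis markers summed to 314 to 321 CPM in WT at day 0 and 111 to 121 at day 7, 4 phloem markers to 790.4 to 835 and 499.6 to 513, with SUC2 (-2.45 ± 0.070) and AHA3 (-0.51 ± 0.048) lower and APL (1.07 ± 0.065) and SWEET12 (2.02 ± 0.081) higher, and 5 guard cell markers to 62.2 to 68.5 and 80.9 to 83.5. The guard cell markers also split, KAT1 (0.69 ± 0.085) and HT1 (0.57 ± 0.23) being higher, MYB60 (-1.42 ± 0.15) and SLAC1 (-0.46 ± 0.19) lower and FAMA (-0.02 ± 0.098) not called. The epidermis sum at day 0 was 377 to 412 CPM in ml2 and 435 to 438 in ml5, and the phloem gene SWEET12 was higher than in WT in ml2 (1.77 ± 0.083) and in ml5 (1.85 ± 0.084). The epidermis markers split in ml5: FDH (1.03 ± 0.064) and CER5 (0.43 ± 0.056) were higher than in WT, ATML1 (-0.24 ± 0.075) and PDF2 (-0.25 ± 0.068) lower and GL2 not called. Of the other phloem markers in ml5, APL (0.29 ± 0.069) and AHA3 (0.14 ± 0.048) were slightly higher and SUC2 (0.12 ± 0.064) was not called. The phloem sum of ml2 at day 0, 807 to 931 CPM, overlapped that of WT. By point estimate the epidermis markers of ml2 at day 0 split too, FDH, CER5 and GL2 lying above WT and ATML1 and PDF2 below. SUC2, APL and AHA3 of ml2 lay much nearer to WT than SWEET12 did. Root markers summed to 26.8 to 32.4 CPM in WT at day 0, with 2 of 4 at 0, and to 24.5 to 28.0 at day 7. In this sum PHT1;1 (9.30 ± 0.60) rose, SHR (-2.08 ± 0.21) fell, SCR was not called and COBL9 was not tested. Xylem markers summed to 3.85 to 5.05 CPM and then to 0.0467 to 0.252, with 2 of 4 at 0, and flower organ markers to 4.99 to 5.42 and 1.92 to 3.11. Of the flower organ markers PI (3.12 ± 0.72) rose, AG (-1.60 ± 0.23) and SEP3 (-1.73 ± 0.47) fell and AP3 was not tested. The part of these shifts in the results below was not tested, and in whole leaves fewer cells of a type and less RNA per cell cannot be told apart.

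Together the 37 genes took 7.08 ± 0.029% of all counts in WT at day 0 and 0.532 ± 0.0040% at day 7. In ml2 the share went from 4.98 ± 0.077% to 0.529 ± 0.0045%, and in ml5 from 5.61 ± 0.033% to 0.780 ± 0.0051%. WT was highest of the 3 genotypes at day 0, and ml5 at day 7. As sums of counts, the Calvin cycle lost more of its share than photorespiration: counts of Calvin cycle members per count of photorespiration members were 3.14 ± 0.015 in WT at day 0 and 1.22 ± 0.015 at day 7, 2.82 ± 0.050 and 1.0 ± 0.016 in ml2, and 3.37 ± 0.031 and 1.18 ± 0.0035 in ml5. The days did not overlap in any genotype. A few genes weigh heavily in these sums. The RBCS genes and RCA took 3.39% of all counts in WT at day 0, of 5.37% for the Calvin cycle, and 0.0896% of 0.292% at day 7. AGT1 alone made up 1028 of 2136 CPM of photorespiration in WT at day 7. The ratio therefore does not describe the typical gene of each pathway, whose medians are given below.

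**Figure D1:**
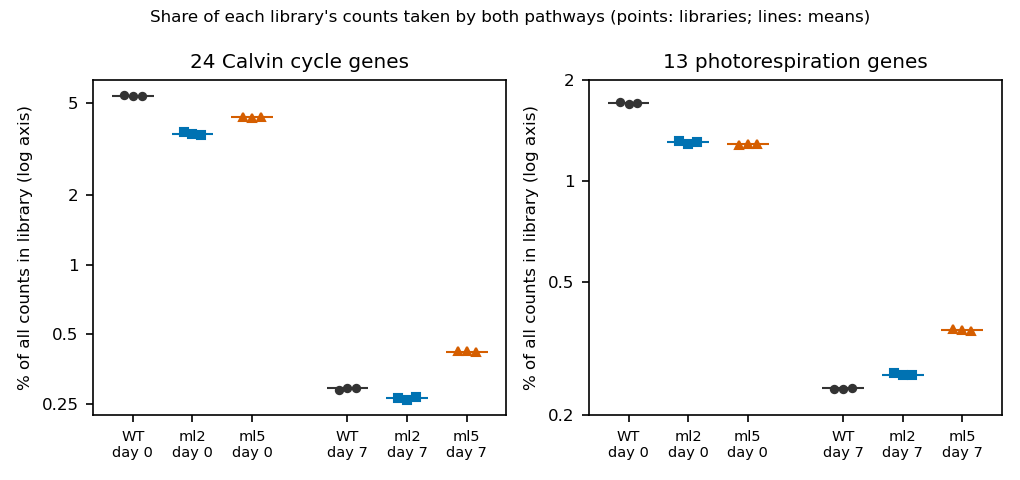
Percentage of all counts in each library taken by the 24 Calvin cycle genes (left) and the 13 photorespiration genes (right), on log axes; points are libraries and lines group means, in 3 genotypes at day 0 and day 7. WT lies highest at day 0 in both panels and ml5 highest at day 7.

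Per kilobase of transcript, the scale on which genes can be set side by side, RBCS1A was highest in WT at day 0 (12003 ± 144 CPM per kb), followed by RCA (7360.5 ± 28.1), RBCS3B (3754 ± 44.5) and RBCS2B (3712 ± 28.3), of which the last pair did not differ beyond their spread. After 7 days of darkness the order in WT was led by AGT1 (513 ± 2.75 CPM per kb), CP12-1 (474 ± 27.5), RCA (297 ± 1.78) and GOX2 (154 ± 3.26), and RBCS1A stood at rank 10 with 76.3 ± 5.01. AGT1 and CP12-1 also led at day 7 in ml2 (621 ± 24.4 and 494 ± 35.3 CPM per kb) and in ml5 (812 ± 10.6 and 681 ± 12.1). Per length, leaves kept in darkness held more transcript of a peroxisomal aminotransferase than of any Rubisco small subunit.

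The comparison of day 7 with day 0 asks how the carbon fixation genes of each genotype changed in darkness. In WT, 21 of 24 Calvin cycle genes fell and 3 rose, and 13 of 13 photorespiration genes fell, where 81.9% of all tested genes were called, 42% higher and 39.9% lower. The median log2 fold change was -4.26 for the Calvin cycle and -4.15 for photorespiration, beside 0.04 over all tested genes. In ml2, 21 Calvin cycle genes fell and 2 rose, and 12 photorespiration genes fell (79.8% of all tested genes called, 39.6% higher and 40.2% lower), with medians of -4.02 and -3.77 beside 0.00 over all. In ml5, 21 Calvin cycle genes fell and 3 rose, and 13 photorespiration genes fell (79.8% called, 39.7% higher and 40.1% lower), with medians of -3.68 and -3.36 beside 0.00. Of the 37 genes, 33 fell in all 3 genotypes, the exceptions being FBA3, TKL2, CP12-3 and GLYK, and 30 fell at least 2-fold in all 3. Neither count was made over all tested genes, where the share called lower in all 3 genotypes cannot pass the 39.9% of WT. Values for ml2 and ml5 were -6.71 ± 0.046 and -5.93 ± 0.044 for RBCS1A, -6.06 ± 0.045 and -5.04 ± 0.043 for the aldolase FBA2, -7.81 ± 0.061 and -7.07 ± 0.056 for GAPB and -6.70 ± 0.055 and -5.98 ± 0.052 for PRK. Among photorespiration genes they were -7.31 ± 0.072 and -6.83 ± 0.069 for SHM1, -5.39 ± 0.055 and -4.83 ± 0.052 for GLDT and -3.54 ± 0.039 and -2.83 ± 0.038 for GGT1, each a smaller fall than in WT by point estimate. Falls of at least 32-fold were seen for 17 of the 37 genes in WT, 14 in ml2 and 11 in ml5, and were not counted over all tested genes. There the share with a called fall of that size cannot pass the 39.9%, 40.2% and 40.1% called lower, in the same order. The order of the genotypes in this count is therefore not shown to be particular to the members. With library sizes alone as the scaling, 10545 genes were called higher and 5850 lower in WT, against 8184 and 7780 with TMM, and the median of all genes moved to 0.42.

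**Figure D2:**
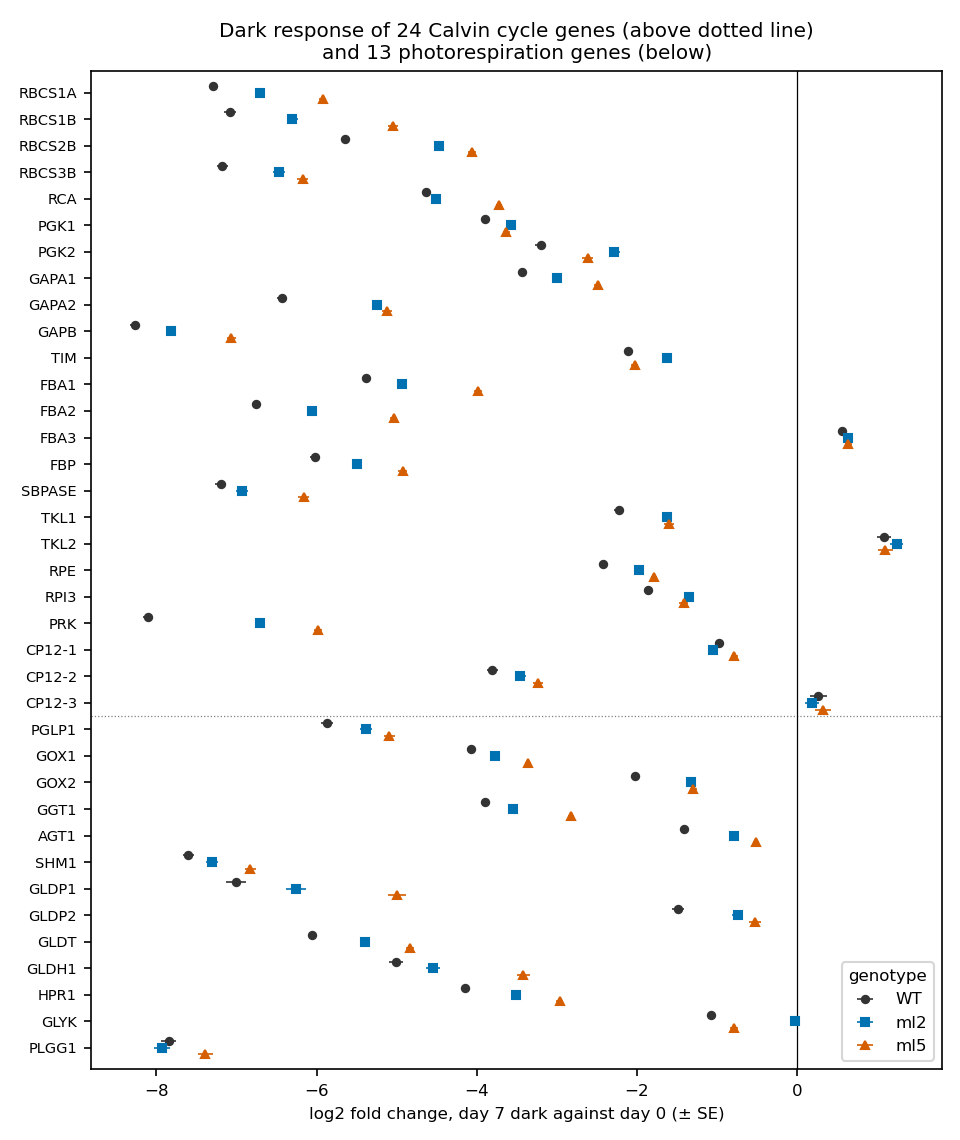
Log2 fold change ± SE of each member between day 7 in darkness and day 0 in WT (circles), ml2 (squares) and ml5 (triangles), in pathway order with the Calvin cycle above the dotted line. FBA3, TKL2 and CP12-3 lie right of 0, GLYK of ml2 lies near 0, and for 27 of 37 genes the fall is, by point estimate, largest in WT, then in ml2, then in ml5. This order was not counted over all tested genes.

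Rubisco's small subunit comes from 4 genes of the nucleus. RBCS1A (AT1G67090) was at 15131, 15429 and 15098 CPM in WT at day 0 and at 93.9, 92.4 and 104 at day 7. The ml2 libraries had 10359, 10613 and 9914 at day 0 and 97.3, 98.4 and 100.01 at day 7, and the ml5 libraries 15814, 15072 and 15458 and then 257, 257 and 249.5. So WT and ml5 overlapped at day 0 with ml2 below them, and WT and ml2 overlapped at day 7 with ml5 above them. The log2 fold change with darkness was -7.08 ± 0.070 for RBCS1B, -7.17 ± 0.073 for RBCS3B and -5.64 ± 0.055 for RBCS2B in WT. RCA, the activase that frees Rubisco of bound sugar phosphates, fell by 4.63 ± 0.036 on the log2 scale in WT, with 14496 to 14607 CPM at day 0 and 584 to 591 at day 7.

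In the reduction steps, GAPB, a subunit of the chloroplast glyceraldehyde phosphate dehydrogenase, had the largest fall of all members in WT, from 2383, 2474 and 2445 CPM to 8.30, 7.38 and 8.0 (-8.27 ± 0.061, adjusted p = 2.71e-39 by edgeR). What was left of its day 0 level was 0.324% in WT, 0.444% in ml2 and 0.746% in ml5. The genes of the partner subunit fell unequally, GAPA2 (-6.43 ± 0.064) more than GAPA1 (-3.43 ± 0.043) in WT. PGK1 and PGK2, which encode phosphoglycerate kinases, fell (-3.90 ± 0.045 and -3.2 ± 0.067).

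Genes of the regeneration steps ranged from deep falls to rises. PRK, phosphoribulokinase, which makes ribulose bisphosphate, was at 2351, 2373 and 2362 CPM in WT at day 0 and 8.52, 8.18 and 8.96 at day 7. SBPASE, sedoheptulose bisphosphatase, was at 998 to 1007 CPM at day 0 and 6.26 to 7.53 at day 7 (-7.20 ± 0.072). Chloroplast fructose bisphosphatase, FBP, fell by 6.02 ± 0.061. Smaller changes were those of TKL1, a transketolase (-2.23 ± 0.061), RPE, ribulose phosphate epimerase (-2.42 ± 0.040), RPI3, ribose phosphate isomerase (-1.86 ± 0.054), and TIM, triose phosphate isomerase (-2.11 ± 0.042).

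The aldolase genes split. FBA1 fell by 5.39 ± 0.048 in WT, while FBA3 was at 104, 111 and 105 CPM at day 0 and 157, 156 and 162 at day 7. FBA3 rose in WT (0.57 ± 0.049), ml2 (0.64 ± 0.048) and ml5 (0.64 ± 0.048), and no day 0 library reached the lowest day 7 library. The other transketolase gene, TKL2, also rose in WT, from 14.8, 11.6 and 12.5 CPM to 29.0, 26.8 and 27.1 (1.09 ± 0.088), in ml2 (1.24 ± 0.085) and in ml5 (1.1 ± 0.089).

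CP12 proteins bind PRK and glyceraldehyde phosphate dehydrogenase into an inactive complex in the dark. CP12-2 fell 14.0-fold in WT, from 427, 432 and 444 CPM to 31.0, 30.2 and 31.9. CP12-1 kept 51.0% of its day 0 level in WT (-0.97 ± 0.048), with 837, 850.0 and 861 CPM before and 404, 447 and 448 after. CP12-3 was low throughout, at 10.9, 13.1 and 10.8 CPM in WT at day 0 and 13.5, 14.0 and 14.1 at day 7. Its rise passed in WT (0.26 ± 0.11, adjusted p = 0.0252 by edgeR) and in ml5 (0.32 ± 0.098), and its value in ml2 did not (0.19 ± 0.093, adjusted p = 0.0638 by edgeR). The WT call ended without replicate 1 (0.22) or 3 (0.22) of WT at day 0, or replicate 2 (0.26) or 3 (0.25) of WT at day 7, and the ml2 value passed without replicate 2 (0.26) of ml2 at day 7.

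Photorespiration begins with PGLP1, the chloroplast phosphoglycolate phosphatase, which fell by 5.87 ± 0.072 in WT. Its reads cannot be told from those of AT5G36790: the coding sequences were 100% identical and the deposited values equal in 18 of 18 libraries. The peroxisomal glycolate oxidase genes GOX1 and GOX2 fell (-4.07 ± 0.040 and -2.02 ± 0.041). The aminotransferases that turn glyoxylate into glycine differed as well. GGT1, which uses glutamate, fell by 3.90 ± 0.040, while AGT1, which uses serine, went from 2739.7, 2739 and 2744 CPM to 1027, 1022 and 1033 (-1.42 ± 0.036). AGT1 kept 37.5% of its day 0 level in WT, 57.9% in ml2 and 70.0% in ml5.

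The mitochondrial conversion of glycine to serine had both deep and shallow falls. SHM1, the serine hydroxymethyltransferase, went from 4161, 4262 and 4186 CPM to 20.3, 22.2 and 22.5 in WT (-7.60 ± 0.072). Glycine decarboxylase has P, T and H proteins beside a dehydrogenase, and GLDT and GLDH1, for T and H, fell (-6.05 ± 0.056 and -5.01 ± 0.086). For the P protein, GLDP1 went from 2508, 2333 and 2332 CPM to 18.3, 19.4 and 18 (-7.01 ± 0.13), and GLDP2 from 702, 662 and 662 to 244, 240.0 and 240.2 (-1.48 ± 0.074). The promoters of this pair are those printed above.

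The last steps were likewise uneven. HPR1, the peroxisomal hydroxypyruvate reductase, changed by -4.15 ± 0.047 in WT, -3.51 ± 0.046 in ml2 and -2.96 ± 0.044 in ml5. PLGG1, the chloroplast transporter that exports glycolate and imports glycerate, went from 306, 302 and 310.1 CPM to 1.40, 1.5 and 1.06 in WT (-7.85 ± 0.093), which rests on 21 to 32 counts per library at day 7. Glycerate kinase, GLYK, which returns phosphoglycerate to the Calvin cycle, was at 273, 268 and 269 CPM in WT at day 0 and at 126, 126 and 131 at day 7 (-1.08 ± 0.047). In ml2 it was at 204, 183 and 179 CPM and then 185, 184 and 189, so the days overlapped (-0.02 ± 0.047, adjusted p = 0.700 by edgeR). In ml5 it fell from 194, 187 and 195 CPM to 114, 109 and 111 (-0.78 ± 0.048). The ml2 value turned to a called rise of 0.21 with library sizes alone, a scaling under which the median of all genes was 0.23 in this comparison.

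**Figure D3:**
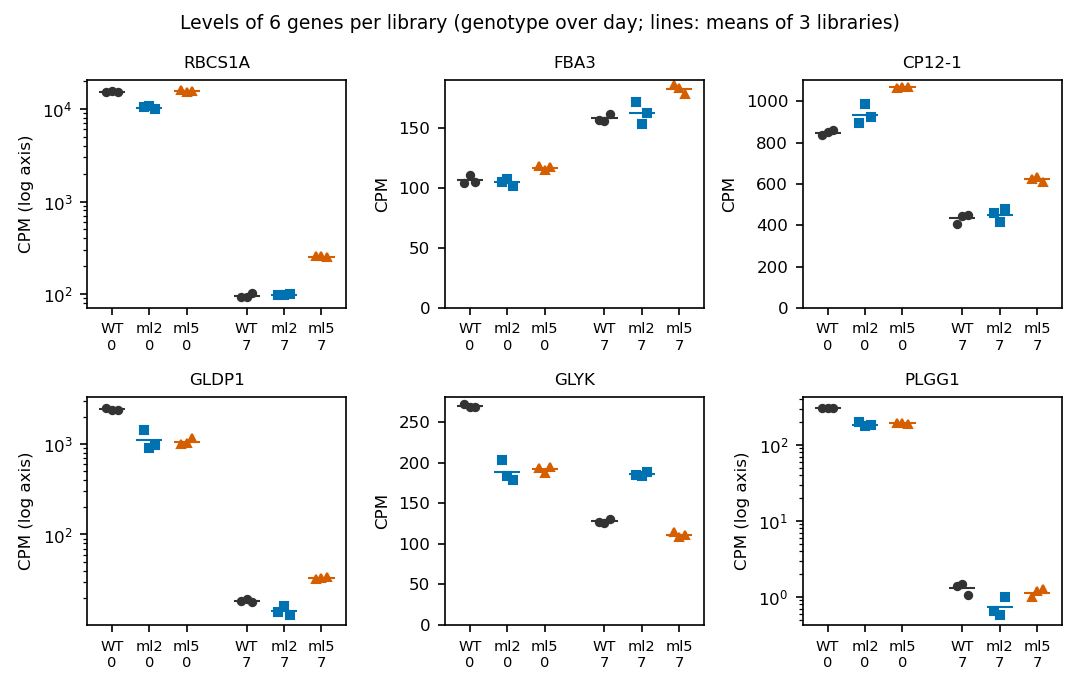
Normalised level in CPM of RBCS1A, FBA3, CP12-1, GLDP1, GLYK and PLGG1 in each library (points) with group means (lines), on the linear or log axis each panel states. FBA3 is higher at day 7 in all 3 genotypes, GLYK of ml2 overlaps between days, and ml2 day 0 replicate 1 lies above the other ml2 libraries of day 0 for GLDP1.

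Within families the shares of the genes shifted with darkness, and in the GLDP, FBA and GOX families another gene led at day 7 than at day 0, while RBCS1A and GAPA1 stayed first in theirs. GLDP2 held 22.0 ± 0.15% of GLDP counts in WT at day 0 and 92.9 ± 0.30% at day 7, and went from 26.5 ± 1.4% to 94.2 ± 0.33% in ml2 and from 26.3 ± 0.76% to 88.8 ± 0.16% in ml5. The differences of 70.8, 67.7 and 62.4 percentage points each gave an exact two-sided permutation p of 0.1, the smallest that 3 libraries against 3 allow. At day 0 the share was above that of WT by 4.45 points in ml2 and 4.31 in ml5 (exact permutation p = 0.1 each). RBCS1A held 61.4 ± 0.22% of RBCS counts in WT at day 0 and 46.2 ± 2.0% at day 7, against 67.9 ± 1.3% and 47.0 ± 1.0% in ml2 and 72.6 ± 0.52% and 57.9 ± 0.32% in ml5. ml2 and WT overlapped in this share at day 7 (0.713 points, exact permutation p = 0.8), and ml5 lay above WT by 11.7 points (exact permutation p = 0.1).

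RBCS2B went the other way, from 14.0 ± 0.11% to 33.2 ± 0.72% of RBCS counts in WT, 10.8 ± 0.48% to 35.2 ± 0.54% in ml2 and 9.28 ± 0.21% to 26.9 ± 0.31% in ml5. FBA3 went from 1.71 ± 0.049% of the 3 aldolase genes to 65.6 ± 0.43% in WT, from 2.71 ± 0.090% to 68.6 ± 1.9% in ml2 and from 2.55 ± 0.027% to 50.6 ± 0.34% in ml5. GOX2 went from 34.6 ± 0.63% to 68.7 ± 0.50% of GOX counts in WT, and GAPA2 from 38.8 ± 0.50% to 7.34 ± 0.47% of GAPA counts. The days of WT did not overlap for any of these shares, which were not tested. The split within RBCS1B, RBCS2B and RBCS3B, whose coding sequences are 94.1% to 97.3% identical and which lie within 8333 bases of chromosome 5, is uncertain, as is that within GOX1 and GOX2 (90.9% identical, within 5928 bases of chromosome 3), since their deposited values hold fractions of reads.

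**Figure D4:**
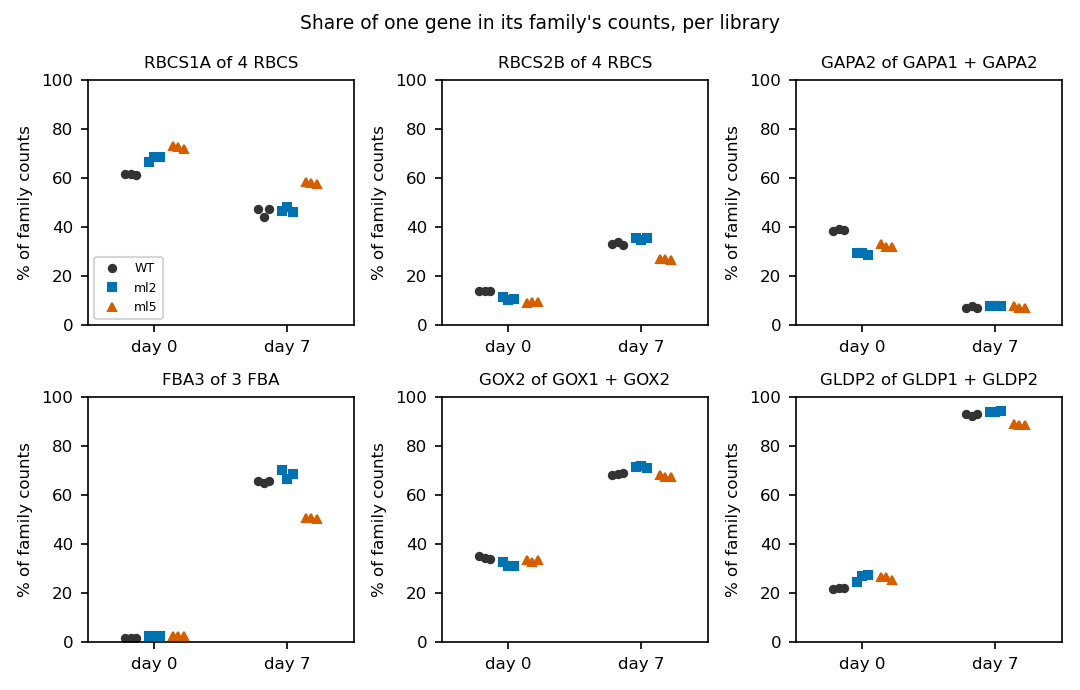
Share in percent of 1 gene in the counts of its family, per library, at day 0 and day 7 in WT (circles), ml2 (squares) and ml5 (triangles). GLDP2 and FBA3 hold most of their family's counts at day 7 and a minor share at day 0, and for both genes ml5 is lowest at day 7.

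The comparison of each line with WT at day 0 asks how the lines differed before darkness. In ml2, 20 of 24 Calvin cycle genes were lower and 2 higher, and 13 of 13 photorespiration genes were lower, where 44.5% of all tested genes were called and 22.6% were lower. In ml5, 18 Calvin cycle genes were lower and 3 higher, and 13 photorespiration genes were lower, where 38.3% of all tested genes were called and 18.8% were lower. Medians were -0.62 and -0.52 for the pathways in ml2 and -0.33 and -0.39 in ml5, beside -0.01 and 0.00 over all tested genes. Both comparisons use the same 3 WT libraries. Each called member had all 3 libraries of the line on 1 side of all 3 of WT. This was not counted over all called genes, so it is not shown to set the members apart.

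The small subunit genes RBCS1B and RBCS2B had the largest differences among the Calvin cycle members in both lines. RBCS1B was at 1634, 1651 and 1656 CPM in WT, at 696, 622 and 603 in ml2 (-1.36 ± 0.051, adjusted p = 1.25e-19 by edgeR) and at 770.2, 789 and 804 in ml5 (-1.06 ± 0.051, adjusted p = 6.09e-17). RBCS2B was at 3440.4, 3485 and 3487 CPM in WT, 1771, 1613 and 1549 in ml2 (-1.08 ± 0.045) and 1963, 1926 and 2036 in ml5 (-0.81 ± 0.045). RCA was lower in ml2 (-0.71 ± 0.031) and ml5 (-0.54 ± 0.031). RBCS1A was lower in ml2 (-0.56 ± 0.036) and not called in ml5 (0.02 ± 0.036, adjusted p = 0.688 by edgeR), where libraries overlapped those of WT. Of the reduction and regeneration genes, GAPA2 (-0.95 ± 0.047 in ml2 and -0.50 ± 0.047 in ml5), FBA1 (-0.80 ± 0.039 and -0.48 ± 0.038), SBPASE (-0.80 ± 0.049 and -0.38 ± 0.049) and PRK (-0.75 ± 0.040 and -0.59 ± 0.040) were below WT.

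A few members did not follow at day 0. FBA3 (-0.03 ± 0.049) and TKL2 (-0.04 ± 0.097) were not called in ml2, and TIM (0.01 ± 0.039) and TKL2 (-0.12 ± 0.10) were not called in ml5 beside RBCS1A. CP12-3 was higher in ml2, with 18.1, 19.4 and 19.3 CPM against 10.9, 13.1 and 10.8 in WT (0.71 ± 0.10), and in ml5, with 17.4, 15.8 and 13.6 (0.43 ± 0.11). CP12-1 was higher in ml5, with 1067, 1071 and 1068 CPM against 837, 850.0 and 861 (0.33 ± 0.048). Its value in ml2 (0.14 ± 0.047) passed with all libraries and not without replicate 1 (0.13) of WT at day 0, or replicate 2 (0.10) of ml2 at day 0, nor with RLE size factors (0.10). In ml5, FBA3 (0.13 ± 0.050, adjusted p = 0.0333 by edgeR) lost its call without replicate 1 (0.12) or 3 (0.12) of WT at day 0, or replicate 1 (0.13) or 3 (0.13) of ml5 at day 0. GAPA1 (-0.10 ± 0.039, adjusted p = 0.0498 by edgeR) lost it without replicate 1 (-0.10) or 2 (-0.10) or 3 (-0.09) of WT at day 0, or replicate 1 (-0.10) or 2 (-0.11) or 3 (-0.08) of ml5 at day 0.

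Among photorespiration genes at day 0, the P protein of glycine decarboxylase was furthest below WT. GLDP1 was at 2508, 2333 and 2332 CPM in WT, 1428, 905 and 965 in ml2 (-1.12 ± 0.094) and 986, 1023 and 1170.5 in ml5 (-1.17 ± 0.094). Without ml2 day 0 replicate 1, the library that stood apart, the ml2 value was -1.38. GLDP2 (-0.79 ± 0.073 in ml2 and -0.84 ± 0.073 in ml5), PLGG1 (-0.72 ± 0.054 and -0.67 ± 0.054) and GOX2 (-0.66 ± 0.040 and -0.53 ± 0.040) were lower. GLDT, the T protein, was at -0.72 ± 0.042 in ml2 and -0.35 ± 0.042 in ml5 against WT. Smaller differences were those of GGT1, with -0.25 ± 0.035 and -0.20 ± 0.035, and AGT1, with -0.35 ± 0.036 and -0.24 ± 0.036. GLDH1 was lower in ml2 (-0.22 ± 0.066) and ml5 (-0.17 ± 0.066), and its ml5 call ended without replicate 2 (-0.14) or 3 (-0.17) of WT at day 0, or replicate 2 (-0.19) or 3 (-0.12) of ml5 at day 0. The ml2 call of GLDH1 ended with library sizes alone (-0.11).

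Between the lines at day 0, 20 of 24 Calvin cycle genes were higher in ml5 than in ml2 and 2 were lower, and 4 of 13 photorespiration genes were higher, where 28.7% of all tested genes were called and 14.2% were higher in ml5. The photorespiration count was 1 with library sizes alone and 2 with only the groups compared. RBCS1A (0.59 ± 0.036), RPI3 (0.48 ± 0.051), GAPA2 (0.45 ± 0.047) and SBPASE (0.43 ± 0.049) stood furthest above ml2, and GLDT (0.37 ± 0.042) and PGLP1 (0.20 ± 0.050) among photorespiration genes. GOX2 (0.13 ± 0.040) lost its call without replicate 2 (0.12) or 3 (0.11) of ml2 at day 0, or replicate 3 (0.12) of ml5 at day 0, and AGT1 (0.11 ± 0.036) without replicate 1 (0.07) of ml2 at day 0, or replicate 1 (0.10) of ml5 at day 0. CP12-2 was lower in ml5 (-0.25 ± 0.058), at 285, 282 and 268 CPM against 312, 355 and 326. CP12-3 was also lower (-0.28 ± 0.10), a call that ended without replicate 2 (-0.27) or 3 (-0.27) of ml2 at day 0, or replicate 2 (-0.30) or 3 (-0.19) of ml5 at day 0. Not called were PGK2 (0.14 ± 0.059, called without replicate 1 with 0.22 of ml2 at day 0, or replicate 1 with 0.19 of ml5 at day 0), TKL2 (-0.08 ± 0.099), GOX1 (0.02 ± 0.035), GGT1 (0.05 ± 0.035), SHM1 (0.10 ± 0.052), GLDP1 (-0.05 ± 0.093, called without replicate 1 with 0.17 of ml2 at day 0), GLDP2 (-0.05 ± 0.073), GLDH1 (0.05 ± 0.066), HPR1 (0.06 ± 0.040), GLYK (0.02 ± 0.047) and PLGG1 (0.05 ± 0.054).

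**Figure D5:**
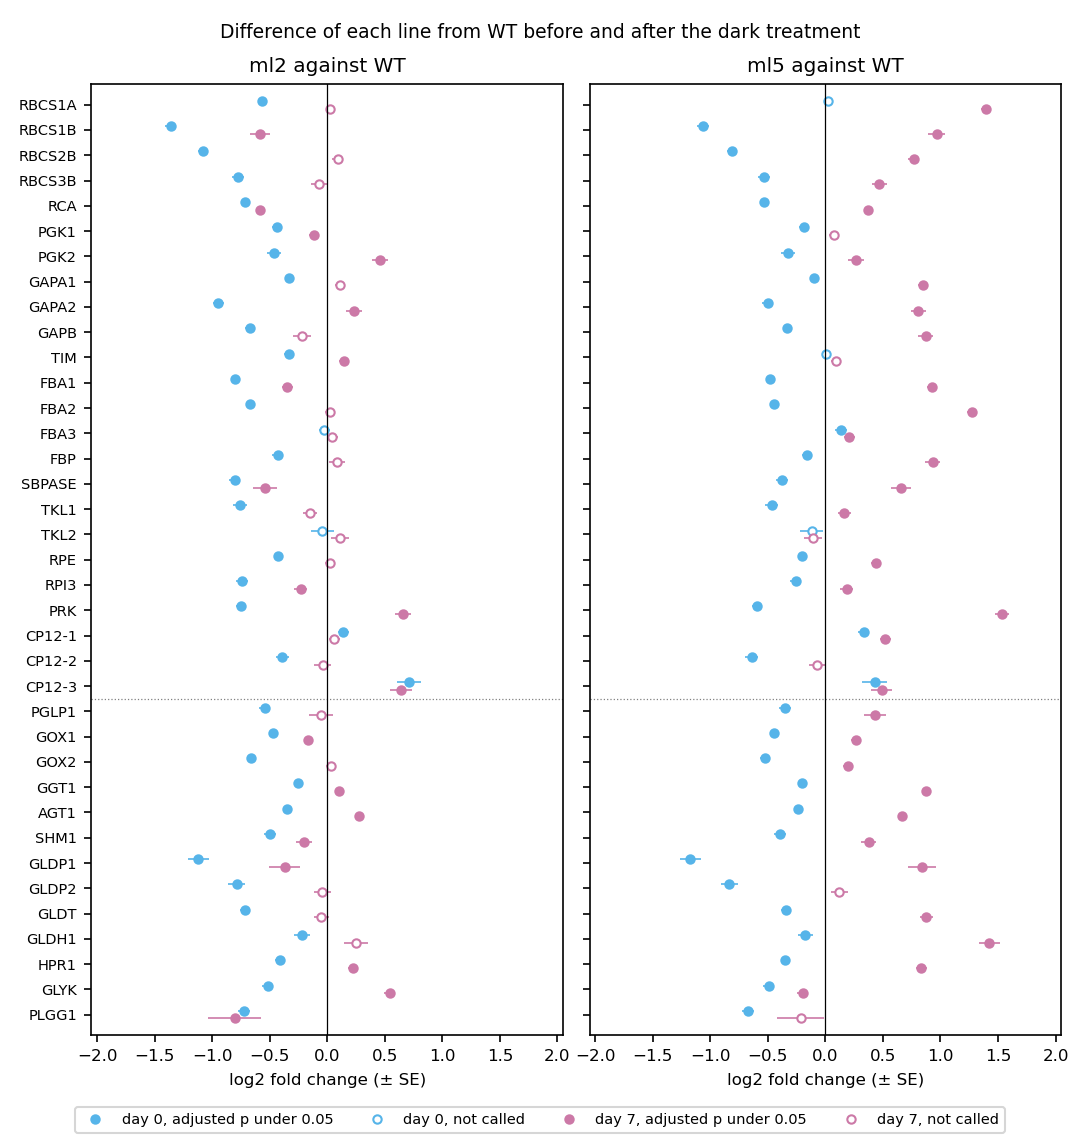
Log2 fold change ± SE of ml2 and ml5 against WT for each member at day 0 and day 7, in pathway order; filled points passed an adjusted p of 0.05. In ml5 most day 0 points lie left of 0 and most day 7 points right of it, and in ml2 the day 7 points lie on both sides.

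The comparison at day 7 asks how the lines stood after darkness. In ml5, 20 of 24 Calvin cycle genes were higher than in WT and 10 of 13 photorespiration genes were higher and 1 lower, where 43.3% of all tested genes were called and 19.3% were higher. The medians were 0.50 and 0.43, beside -0.03 over all tested genes. In ml2, 5 Calvin cycle genes were higher and 6 lower, and 4 photorespiration genes were higher and 4 lower, where 25.8% of all tested genes were called, with medians of 0.03 and -0.05 beside -0.01. Of the 37 genes, 26 were lower than WT in ml5 at day 0 and higher at day 7, 16 of the Calvin cycle and 10 of photorespiration. For ml2 that number was 8, while 15 genes were lower at day 0 and not called at day 7, and 10 were lower on both days. These joint patterns were not counted over all tested genes. There the ml5 share cannot pass the 18.8% called lower at day 0. The ml2 shares cannot pass, in the same order, 13.4% (higher at day 7), 22.6% (lower at day 0) and 12.4% (lower at day 7).

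In ml5 at day 7, PRK was at 25.2, 24.4 and 24.6 CPM against 8.52, 8.18 and 8.96 in WT (1.53 ± 0.061, adjusted p = 8.40e-19 by edgeR). RBCS1A was at 257, 257 and 249.5 CPM against 93.9, 92.4 and 104 (1.39 ± 0.038), and FBA2 at 99.3, 96.9 and 95.4 against 40.6, 39.9 and 40.2 (1.27 ± 0.041). These were small remnants of the day 0 levels of ml5: 1.58% was left of PRK and 1.65% of RBCS1A. RBCS1B (0.97 ± 0.072), FBP (0.93 ± 0.062), FBA1 (0.92 ± 0.044) and GAPB (0.87 ± 0.067) were higher too. PGK1 (0.08 ± 0.042), TIM (0.09 ± 0.041), TKL2 (-0.11 ± 0.077) and CP12-2 (-0.07 ± 0.071) were not called. TKL1 (0.17 ± 0.059) lost its call without replicate 1 (0.15) of WT at day 7, or replicate 1 (0.16) of ml5 at day 7.

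Among photorespiration genes of ml5 at day 7, GLDH1 was at 34.1, 35.6 and 30.8 CPM against 13.7, 13 and 10.7 in WT (1.42 ± 0.090). GGT1 was at 442, 431 and 441 CPM against 238, 239 and 240.4 (0.87 ± 0.036), and HPR1 at 103, 111 and 106 against 57.5, 60.2 and 61.8 (0.83 ± 0.044). GLDT (0.88 ± 0.059), GLDP1 (0.84 ± 0.12) and AGT1 (0.66 ± 0.036) were higher as well. GLYK was the only member called lower, at 114, 109 and 111 CPM against 126, 126 and 131 (-0.20 ± 0.048). GLDP2 (0.12 ± 0.074) and PLGG1 (-0.21 ± 0.20) were not called.

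In ml2 at day 7, members of both pathways lay on either side of WT. PRK was higher, at 13.9, 14.3 and 12.4 CPM against 8.52, 8.18 and 8.96 (0.66 ± 0.066), as were CP12-3 (0.64 ± 0.094), PGK2 (0.46 ± 0.070) and TIM (0.15 ± 0.041). RCA was lower, at 385, 386 and 403 CPM against 589, 591 and 584 (-0.59 ± 0.031), as were RBCS1B (-0.58 ± 0.086), SBPASE (-0.54 ± 0.10), FBA1 (-0.35 ± 0.047) and RPI3 (-0.23 ± 0.056). Of the photorespiration genes, GLYK was higher, at 185, 184 and 189 CPM against 126, 126 and 131 (0.54 ± 0.047), as were AGT1 (0.28 ± 0.036) and HPR1 (0.22 ± 0.045), and GOX1 was lower (-0.17 ± 0.038). The 18 members not called were RBCS1A (0.03 ± 0.039), RBCS2B (0.09 ± 0.050), RBCS3B (-0.07 ± 0.068), GAPA1 (0.11 ± 0.041, called without replicate 2 with 0.14 of ml2 at day 7), GAPB (-0.22 ± 0.077, called without replicate 2 with -0.27 of WT at day 7), FBA2 (0.03 ± 0.042), FBA3 (0.04 ± 0.047), FBP (0.09 ± 0.067), TKL1 (-0.15 ± 0.059, called without replicate 2 with -0.19 of ml2 at day 7), TKL2 (0.11 ± 0.076), RPE (0.02 ± 0.039), CP12-1 (0.06 ± 0.048), CP12-2 (-0.04 ± 0.072), PGLP1 (-0.06 ± 0.10), GOX2 (0.03 ± 0.041), GLDP2 (-0.05 ± 0.074), GLDT (-0.05 ± 0.065) and GLDH1 (0.25 ± 0.10, called without replicate 1 with 0.32 of WT at day 7).

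The other calls of ml2 at day 7 ended when single libraries were left out. PLGG1 (-0.80 ± 0.23, 12 to 22 counts per ml2 library) ended without replicate 2 (-0.71) of WT at day 7, or replicate 1 (-0.71) or 2 (-0.65) of ml2 at day 7. GLDP1 (-0.37 ± 0.14) ended without replicate 1 (-0.38) or 2 (-0.34) or 3 (-0.39) of WT at day 7, or replicate 1 (-0.35) or 3 (-0.30) of ml2 at day 7. SHM1 (-0.20 ± 0.071), whose libraries overlapped, ended without replicate 2 (-0.18) or 3 (-0.18) of WT at day 7, or replicate 1 (-0.20) or 2 (-0.12) of ml2 at day 7. These are members of photorespiration, as is GGT1 (0.11 ± 0.036), which ended without replicate 1 (0.10) or 2 (0.10) or 3 (0.11) of WT at day 7, or replicate 1 (0.10) or 3 (0.10) of ml2 at day 7. Of the Calvin cycle, GAPA2 (0.23 ± 0.069) ended without replicate 1 (0.20) or 3 (0.20) of WT at day 7, or replicate 1 (0.19) of ml2 at day 7, and PGK1 (-0.11 ± 0.042) without replicate 1 (-0.11) or 2 (-0.12) or 3 (-0.12) of WT at day 7, or replicate 1 (-0.10) or 2 (-0.10) of ml2 at day 7.

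Set directly against ml2 at day 7, ml5 was higher for 19 Calvin cycle genes and lower for 2, and higher for 10 photorespiration genes and lower for 1 (41.4% of all tested genes called, 19% higher). RBCS1B (1.55 ± 0.078), RBCS1A (1.37 ± 0.038), FBA1 (1.27 ± 0.045), FBA2 (1.25 ± 0.041), GLDP1 (1.21 ± 0.13) and SBPASE (1.2 ± 0.093) differed most. RCA (0.96 ± 0.031), GLDT (0.93 ± 0.059), GGT1 (0.77 ± 0.036) and HPR1 (0.61 ± 0.044) were higher in ml5 too. GLYK was lower in ml5 than in ml2 (-0.74 ± 0.047). PGK2 (-0.20 ± 0.068) was lower with all libraries, and not with library sizes alone (-0.12) or without replicate 2 (-0.18) or 3 (-0.20) of ml2 at day 7, or replicate 2 (-0.17) of ml5 at day 7. TKL2 (-0.22 ± 0.076) was lower with all libraries, and not with library sizes alone (-0.13) or without replicate 1 (-0.20) or 3 (-0.17) of ml2 at day 7, or replicate 1 (-0.21) or 2 (-0.21) of ml5 at day 7. Not called were TIM (-0.06 ± 0.041), CP12-2 (-0.03 ± 0.072), CP12-3 (-0.15 ± 0.090), GLDP2 (0.17 ± 0.074, called without replicate 2 with 0.23 of ml2 at day 7) and PLGG1 (0.59 ± 0.23, called without replicate 3 with 0.88 of ml2 at day 7, or replicate 1 with 0.69 of ml5 at day 7).

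The difference between dark responses, an interaction term that equals the day 7 difference less the day 0 difference, asks whether a line lost its transcripts to another extent than WT. In ml2 it was called positive for 19 Calvin cycle genes and 12 photorespiration genes (29% of all tested genes called, 13.4% positive). In ml5 it was called positive for 20 and 12 genes (35.4% called, 17.4% positive). No member was called negative in either line by edgeR, and library sizes alone gave 1 negative call in ml2. Medians were 0.47 and 0.63 in ml2 and 0.93 and 0.90 in ml5, beside 0.00 and -0.01 over all tested genes, and both comparisons use the WT libraries. For ml5 less ml2, 14 Calvin cycle genes were positive and 2 negative, and 9 photorespiration genes were positive and 1 negative (25.8% called, 13.6% positive).

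PRK had the largest difference from WT in both lines, 1.41 ± 0.077 in ml2 and 2.13 ± 0.073 in ml5, its fall being 276-fold in WT, 104-fold in ml2 and 63.2-fold in ml5. RBCS1B (2.03 ± 0.088) and GLDP1 (2.01 ± 0.15) came next in ml5, and GAPA2 (1.18 ± 0.083), RBCS2B (1.17 ± 0.067) and GLYK (1.06 ± 0.066) in ml2. FBA2 (1.72 ± 0.054), GLDH1 (1.60 ± 0.11), FBA1 (1.40 ± 0.058) and GGT1 (1.07 ± 0.050) also fell less in ml5 than in WT. Not called in ml2 were FBA3 (0.07 ± 0.068), SBPASE (0.26 ± 0.11, called without replicate 1 with 0.34 of WT at day 7, or replicate 1 with 0.30 of ml2 at day 0, or replicate 1 with 0.36 of ml2 at day 7), TKL2 (0.15 ± 0.12), CP12-1 (-0.08 ± 0.067), CP12-3 (-0.08 ± 0.14) and PLGG1 (-0.08 ± 0.23). Not called in ml5 were TIM (0.08 ± 0.057), FBA3 (0.07 ± 0.068), TKL2 (0.01 ± 0.13), CP12-3 (0.06 ± 0.15) and PLGG1 (0.46 ± 0.21).

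Between the lines, GLDP1 (1.26 ± 0.16), RBCS1B (1.25 ± 0.093), GLDH1 (1.13 ± 0.11) and FBA2 (1.03 ± 0.054) fell less in ml5 than in ml2. GLYK (-0.76 ± 0.067), TIM (-0.40 ± 0.057) and PGK2 (-0.34 ± 0.090) fell more in ml5, PGK2 not with library sizes alone (-0.16). Not called were PGK1 (-0.06 ± 0.058), GAPA2 (0.13 ± 0.079), FBA3 (0.01 ± 0.068), TKL1 (0.03 ± 0.083), TKL2 (-0.14 ± 0.12), RPI3 (-0.07 ± 0.075), CP12-2 (0.22 ± 0.092, called without replicate 1 with 0.29 of ml2 at day 0, or replicate 1 with 0.30 of ml2 at day 7, or replicate 1 with 0.29 of ml5 at day 7), CP12-3 (0.13 ± 0.14), GOX2 (0.03 ± 0.057), GLDP2 (0.21 ± 0.10, called without replicate 2 with 0.31 of ml2 at day 0, or replicate 2 with 0.28 of ml2 at day 7) and PLGG1 (0.54 ± 0.24, called without replicate 3 with 0.83 of ml2 at day 7). RCA fell 24.8-fold in WT, 22.7-fold in ml2 and 13.2-fold in ml5. The RCA difference of ml2 from WT (0.13 ± 0.044) turned to -0.03 with library sizes alone, where the median of all genes was -0.15, and ended without replicate 1 (0.13) or 3 (0.12) of WT at day 0, or replicate 3 (0.12) of WT at day 7, or replicate 3 (0.11) of ml2 at day 0, or replicate 3 (0.10) of ml2 at day 7.

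Genes that serve the pathways outside the core list went partly along in WT darkness, where 39.9% of all tested genes were called lower and 42% higher. Of 11 genes for Rubisco assembly and repair, 10 fell and 1 rose (median -2.74), among them CBBY, which removes an inhibitor of Rubisco (-6.08 ± 0.086). Of 10 genes of the plastid thioredoxin system, 6 thioredoxins and 4 reductase genes, 9 fell and 1 rose (median -2.01), among them TRXF1, a thioredoxin that activates Calvin cycle enzymes in the light (-5.73 ± 0.074). The carbonic anhydrases BCA1 and BCA2 and the triose phosphate translocator TPT fell (median -6.72), BCA1 from 3149, 3154 and 3145 CPM to 2.98, 2.20 and 3.02. Of 8 genes of photorespiratory nitrogen handling and transport, 7 fell and 1 rose (median -2.28), including the plastid glutamine synthetase GS2 (-5.67 ± 0.070), the glutamate synthase GLU1 (-6.12 ± 0.13) and the peroxisomal malate dehydrogenase PMDH2 (-6.47 ± 0.061). Of 13 other genes listed with photorespiration, 3 rose and 9 fell (median -1.91), including GLDH3, another H protein gene (-7.78 ± 0.088). The 9 include AT5G36790, whose values are those of PGLP1 again. Of the 3 that rose, GOX3 did so most (6.69 ± 0.18), unlike GOX1 and GOX2.

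Of 15 cytosolic and glycolytic counterparts of the Calvin cycle enzymes, 7 rose and 7 fell in WT (median -0.30), near the shares over all tested genes. Single genes of this list still had deep falls in WT: the aldolase FBA5 (-13.55 ± 0.14), FBA7 (-6.32 ± 0.15) and NP-GAPDH (-4.19 ± 0.060). The fall of FBA5 was larger than that of GAPB (-8.27), the deepest among the members. Its exact size is loosely set, since the level left at day 7 was poorly measured: ml5 against WT gave -0.12 ± 0.77 there. The list summed to 4057 to 4104 CPM in WT at day 0 and 1995 to 2026 at day 7. At day 0, 10 of 11 Rubisco assembly genes were lower in ml2 and 0 higher (median -0.59), and in ml5 5 were lower and 3 higher (median -0.05), where 22.6% of all tested genes were lower and 21.9% higher in ml2, and 18.8% and 19.5% in ml5. Of the 8 genes of photorespiratory nitrogen handling and transport, 7 were lower and 1 higher in ml2 (median -0.53), and 6 lower in ml5 (median -0.46). At day 7 in ml5, 8 of 15 cytosolic counterparts were lower than in WT and 2 higher (median -0.16), where 24% of all tested genes were lower and 19.3% higher. CAT2, a leaf catalase that removes the peroxide made by glycolate oxidase, was lower at day 0 in ml2 (-1.09 ± 0.051) and ml5 (-0.97 ± 0.051). DIT1, a chloroplast dicarboxylate carrier, was lower in ml2 at day 0 (-1.09 ± 0.065) and higher in ml5 at day 7 (0.72 ± 0.069). In ml5 at day 7 TPT (0.75 ± 0.038), BCA2 (0.99 ± 0.056) and the cytosolic NP-GAPDH (1.51 ± 0.061) were higher than in WT and BCA1 was lower (-1.03 ± 0.16).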

How the data were processed

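RNA of Arabidopsis leaves was extracted with Trizol and libraries were made with an Illumina TruSeq RNA kit, per the labels' protocols. TopHat2 2.0.12 and Bowtie2 2.0.6 and the TAIR10 and IRGSP-1.0 builds are named, without roles, per the submitters' processing notes, and the counting tool is not given in the sources used here. The authors deposited estimated counts per gene for 18 libraries, 97.12% of them whole numbers, which were rounded here. Columns marked CK were read as day 0 and those marked D as day 7, an inference from the labels. Counts of 27628 genes were tested with edgeR 4.0.16 in R 4.3.3 (quasi-likelihood test, TMM scaling, 6 group means, no block, filterByExpr with a minimum count of 10), leaving out 8135 low genes, with Benjamini-Hochberg adjustment over the other 19493 and a threshold of 0.05 in 12 comparisons. The common biological coefficient of variation was 5.627%. DESeq2 1.42.0, limma-voom (limma 3.58.1), other scalings, a looser filter, a replicate block, fits of the compared groups only and leaving out each library were the alternatives. The code was tested on simulated data. Same replicate numbers did not pair libraries (45 correlations of deviations, -0.1205 to 0.0772), and the labels give no batch. The members and gene lists were chosen with earlier results of these data known. Any member could be named. In each comparison and pathway, values were due for the 4 smallest adjusted p, for members called against the majority and for those not called, and for up to 3 genes per other list, by smallest adjusted p where some group averaged 5 CPM or more. Levels per kilobase used spliced lengths of TAIR10.1, and reads shared by near-identical genes make their split uncertain.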

Additional observations from a re-analysis of the deposited data

Results flagged for a closer look

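Results are listed here because the change with darkness differed between genotypes by the interaction term of the edgeR fit, as log2 differences. The genes named have the 4 smallest adjusted p of their pathway or were called against the majority. They are not always the largest differences: RBCS1B (2.03) and GLDP1 (2.01) of ml5 less WT are not among them. Between ml2 and WT, 31 of 37 members differed, where 29% of all tested genes were called. Among Calvin cycle genes the difference was 1.41 for PRK, 1.18 for GAPA2, 1.17 for RBCS2B and 0.70 for FBA2. Among photorespiration genes it was 1.06 for GLYK, 0.69 for GOX2, 0.63 for AGT1 and 0.63 for HPR1.

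Between ml5 and WT, 32 members differed, where 35.4% of all tested genes were called. The difference was 2.13 for PRK, 1.72 for FBA2, 1.40 for FBA1 and 1.37 for RBCS1A in the Calvin cycle. In photorespiration it was 1.22 for GLDT, 1.18 for HPR1, 1.07 for GGT1 and 0.90 for AGT1.

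Between ml5 and ml2, 26 members differed, where 25.8% of all tested genes were called. FBA2 (1.03), FBA1 (0.95), RCA (0.78), RBCS1A (0.78), GLDH1 (1.13), GGT1 (0.71) and HPR1 (0.55) fell less in ml5. GLYK (-0.76), TIM (-0.40) and PGK2 (-0.34) fell more in ml5. The groups compared share libraries, so these 3 sets of values are not independent of each other.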

How the results depend on the processing

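Of 444 member values (37 genes in 12 comparisons), 437 kept direction and call with RLE size factors, 435 with DESeq2, 435 without a filter beyond 1 count, 434 with limma-voom, 431 with only the groups compared and 412 with library sizes alone. The replicate numbers are not shown to pair libraries: with the replicate block 442 were kept, GAPA1 in ml5 against WT at day 0 (-0.10) and PGK1 in ml2 against WT at day 7 (-0.11) lost their calls, and the Calvin cycle counts of lower genes went from 18 to 17 and from 6 to 5. With library sizes alone the median of all genes was 0.42 in WT, 0.23 in ml2 and 0.41 in ml5 for darkness, 0.10 for ml2 against WT at day 0, -0.15 for the dark response of ml2 less WT and 0.18 for ml5 less ml2. That setting gave 1 photorespiration gene higher in darkness in ml2, 1 higher in ml5 than in ml2 at day 0, 0 Calvin cycle genes lower in ml5 than in ml2 at day 7, and 1 Calvin cycle gene with a negative dark response difference in ml2 less WT and 1 in ml5 less ml2, and it turned GLYK in ml2 darkness to 0.21 and the RCA difference of ml2 less WT to -0.029. Calvin cycle genes higher in ml2 at day 0 were 1 with RLE and 1 with DESeq2 (1 to 2 with single libraries left out). With only the groups compared, 1 Calvin cycle gene was lower (1 to 2 with single libraries left out) and 2 photorespiration genes were higher in ml5 than in ml2 at day 0, and 2 photorespiration genes were lower in ml2 than in WT at day 7 (1 with limma-voom, 1 to 3 with single libraries left out). Leaving out single libraries gave 0 to 2 Calvin cycle genes lower in ml5 than in ml2 at day 7, and GLDP1 in ml5 against ml2 at day 0 ranged from -0.17 to 0.17, the latter without ml2 day 0 replicate 1. Over all such fits 3227 values were kept, 83 lost and 19 gained a call and 1 reversed. The cause was not tested. PLGG1 at day 7, with its lowest count of 12, is limited by depth.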
